A study of Mus musculus with 447 samples.

Results

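Imprinted genes are expressed mainly from 1 parental copy, and 37 of them were followed here through single cells of the fetal mouse pancreas. The genes were named by symbol from the imprinted domains of the mouse, without regard to their level, and 35 of the 37 were found among the 40824 genes measured. Snurf and Peg13 had no matching gene row, and their levels are not analysed here. RNA was read by Smart-seq3, a full-length plate method, in 447 single GFP-positive cells sorted from E15.5 embryos.

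Of the 447 cells, 212 carried the label Pdx1CreNeurod1OE (Neurod1OE below) and 235 the label Pdx1CreNgn3KONeurod1OE (Ngn3KO below). The design text describes these mice as Pdx1CreER;Neurod1OE and Pdx1CreER;Ngn3fl;Neurod1OE, so that both groups carry the Neurod1 overexpression allele and the Pdx1-driven Cre, which acts in cells of the pancreatic epithelium, and the Ngn3KO cells carry a conditional Ngn3 allele in addition. Cells with neither allele are not among those analysed here. The sample titles place 322 cells in set 2, of which 36.3% were Neurod1OE and the rest Ngn3KO, and 95 Neurod1OE and 30 Ngn3KO cells in set 3, with no cell shared between the sets. The labels name no animal, so each genotype counted as 1 sample, the cells were not used as replicates, and no test between genotypes or states was possible.

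Imprinted genes lie in clusters under the control of regions that are methylated on the chromosome of 1 parent. Many act on fetal growth: the paternally expressed genes are often growth promoting (Igf2, Dlk1, Peg3, Mest, Plagl1), and several maternally expressed ones restrain growth (H19, Cdkn1c, Grb10, Igf2r). In the pancreas, loss of imprinting at the Igf2, Cdkn1c and Plagl1 regions is known for its effect on beta cells and neonatal glucose control. The reads used here do not separate the maternal from the paternal copy, so levels are the sum of both.

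Cells were placed in states by marker level, in CPM (reads of a gene per 1000000 reads of the cell): at least 1000 CPM of Gcg, the glucagon gene of alpha cells (Gcg-high), at least 1000 CPM of Cpa1, a carboxypeptidase of acinar and tip cells (Cpa1-high), or neither. Cells past both limits were kept apart and counted in none of these states. In set 2 all but 6 of the Neurod1OE and all but 4 of the Ngn3KO cells were Gcg-high by this rule. Set 3 held 31 Gcg-high, 15 Cpa1-high and 48 neither cells of Neurod1OE, and 1 past both limits. Of Ngn3KO it held 29 Cpa1-high cells and 1 Gcg-high cell. Within set 2 the title numbers fall in 2 blocks that differ in the level of the pseudogene Gm12338 (the first 51 and the last 66 Neurod1OE cells, and the first 50.2% and the rest of the Ngn3KO cells, with 5 Ngn3KO cells going against the rule). The blocks were found in the data and what they stand for is not stated. By their X- and Y-linked reads, no cell of Neurod1OE block 1 was called female and none of block 2 male, no Ngn3KO cell of set 2 was called male, and all 30 Ngn3KO cells of set 3 were called male. Of the Neurod1OE cells of set 3, 64 were called male and 27 female. The median cell had between 344128 and 728074 reads in the 4 groups of genotype and set.

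The labels were checked against the genes they name. Neurod1, the overexpressed factor, stood at 332 and 292 CPM in Neurod1OE and Ngn3KO cells of set 2, and at 217 CPM in Neurod1OE cells of set 3. In Ngn3KO cells of set 3 it was at 30.4 CPM, with 54.6% of the reads in the top cell. Those cells are almost all Cpa1-high, and Cpa1-high cells of set 3 had 37.8 CPM in Neurod1OE and 14.3 CPM in Ngn3KO. Neurod1 is also 1 of the 9 pan-endocrine genes summed below. No cells without the Neurod1 allele were analysed, so these levels do not check the overexpression. Neurog3, the gene behind the name Ngn3, was scarce in all 4 groups (3.06 to 17.8 CPM), so its reads do not check the knockout. Markers matched the states: 10 acinar genes summed to 44509 and 18184 CPM in Cpa1-high Ngn3KO and Neurod1OE cells, against 79.2 to 117.5 CPM in the Gcg-high groups by block and the neither cells. The Cpa1-high groups still differed in their other markers, with 9 pan-endocrine genes summing to 2113 CPM in the Neurod1OE and 421 CPM in the Ngn3KO group, and 8 mesenchyme genes to 81.4 and 1038 CPM.

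Before the values, 2 kinds of sequence show what several of these genes carry. The first are the 250 bases before a RefSeq transcript start (GRCm38.p6) of 4 members, 2 that were higher in Cpa1-high cells (Mest, a hydrolase-like membrane protein, and Plagl1, a zinc finger factor) and 2 that were higher in Gcg-high cells (Nap1l5, of the nucleosome assembly protein family, and Zdbf2, a zinc finger protein). Capitals mark TGCCGC, the core letters bound by the imprint-keeping factor ZFP57 when methylated, or its reverse complement GCGGCA.
Mest, chr6:30737800-30738049, plus strand: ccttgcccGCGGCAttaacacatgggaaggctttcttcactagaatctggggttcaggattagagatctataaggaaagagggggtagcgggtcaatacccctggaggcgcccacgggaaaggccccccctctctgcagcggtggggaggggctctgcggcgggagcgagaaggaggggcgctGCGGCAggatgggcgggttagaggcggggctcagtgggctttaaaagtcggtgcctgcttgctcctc
Plagl1, chr10:13090582-13090831, plus strand: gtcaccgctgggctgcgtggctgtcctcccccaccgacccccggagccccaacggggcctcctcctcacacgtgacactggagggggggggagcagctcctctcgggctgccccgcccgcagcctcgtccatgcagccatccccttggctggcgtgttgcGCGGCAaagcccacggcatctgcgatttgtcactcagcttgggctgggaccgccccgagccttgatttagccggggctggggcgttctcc
Nap1l5, chr6:58907127-58907376, minus strand: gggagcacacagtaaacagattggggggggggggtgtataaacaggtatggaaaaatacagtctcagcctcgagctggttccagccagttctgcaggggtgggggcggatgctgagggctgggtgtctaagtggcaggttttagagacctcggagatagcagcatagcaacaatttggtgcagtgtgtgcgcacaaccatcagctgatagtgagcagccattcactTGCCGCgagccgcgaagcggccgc
Zdbf2, chr1:63200108-63200357, plus strand: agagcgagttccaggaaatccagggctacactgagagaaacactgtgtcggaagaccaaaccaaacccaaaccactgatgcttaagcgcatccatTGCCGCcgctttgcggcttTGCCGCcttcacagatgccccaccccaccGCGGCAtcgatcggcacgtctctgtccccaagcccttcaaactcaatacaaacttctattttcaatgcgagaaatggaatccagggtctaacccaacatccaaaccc
The Mest window holds 2 matches, the Zdbf2 window 3, and the Plagl1 and Nap1l5 windows 1 each. Searched on both strands, TGCCGC occurred in 7 of 46 member promoters (6 of 29 genes that had one), and in 8.68% of all 32851 promoters of the same length. All 4 windows shown hold a match, so they do not stand for the members of either state. Among other members that differed between the states and had a window, Zim1, higher in Gcg-high cells, held 1 match. Gnas, Ndn, Cobl, Nnat, Peg3 and Inpp5f, also higher there, held 0, as did Dlk1, Ascl2 and Slc38a4, lower there. A match describes letters, not binding. The Zdbf2 window lies upstream of the annotated gene body, at an alternative start, while the window at the annotated start holds 0 matches. A Mest window further upstream also holds 0.

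The second kind are the mature miRNAs that lie between the start and end of a member gene, on either strand and in exons or introns. Mirg holds 26 in the annotation, Rian 6, Meg3 3, and Igf2, H19, Mest and Usp29 2 each, while 11 lie on the strand opposite to Rtl1 and 2 on its own strand. One mature sequence is shown for each of 6 members that differ between the cells below or lie in the Dlk1-Meg3 domain, with the seed (bases 2 to 8) in capitals.
mmu-miR-335-5p (Mest): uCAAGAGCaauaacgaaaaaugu
mmu-miR-675-5p (H19): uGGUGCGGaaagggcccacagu
mmu-miR-483-3p (Igf2): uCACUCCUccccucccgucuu
mmu-miR-770-5p (Meg3): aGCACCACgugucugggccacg
mmu-miR-410-3p (Mirg): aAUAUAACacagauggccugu
mmu-miR-127-3p (opposite Rtl1): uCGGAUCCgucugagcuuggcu
No 2 of these 6 share a seed. Among all the miRNAs within these genes, 1 seed occurred more than once, GGUUGCC, in miR-453 and miR-496a-5p of Mirg. The mature miRNAs themselves were not measured, and levels below are those of the long RNAs of the members.

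**Figure D1:**
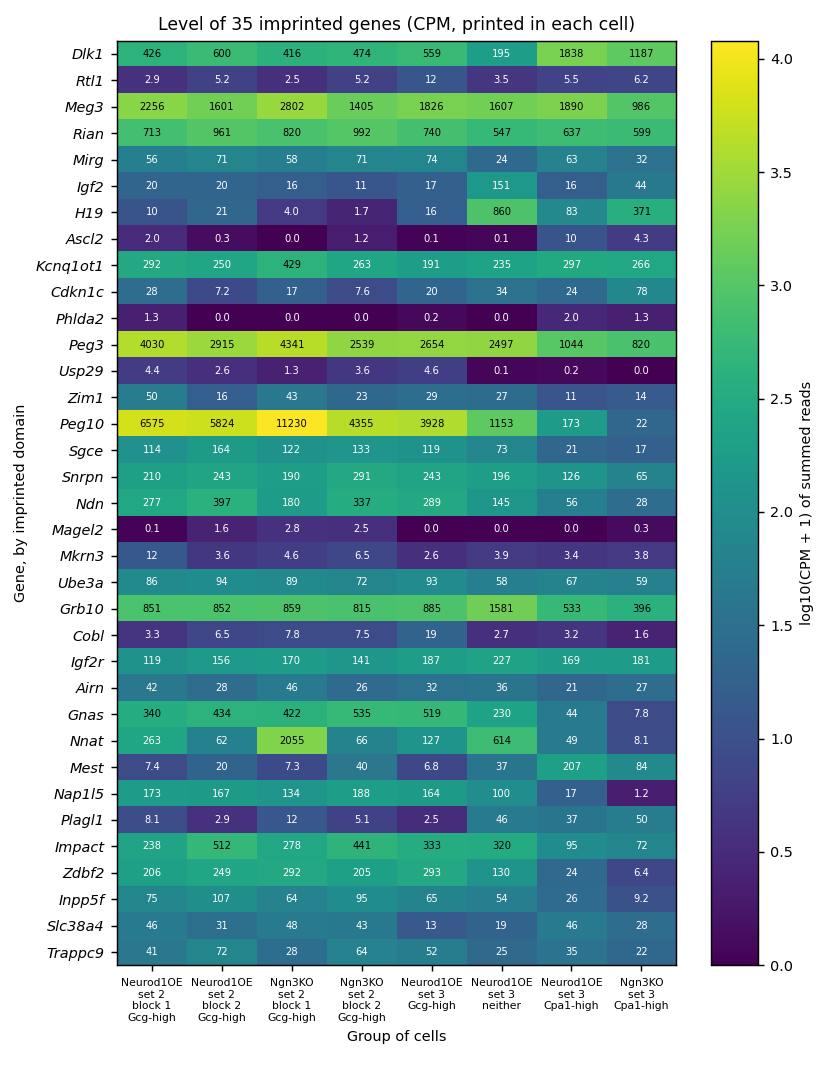
Level of the 35 genes in 8 groups of cells, as CPM of the reads summed over the cells of a group; colour is log10(CPM + 1) and the number in each field is the CPM. Peg10, Peg3 and Meg3 exceed 1000 CPM in all 5 Gcg-high columns, Peg10 is at 173.1 and 21.5 CPM in the Cpa1-high columns, and Dlk1 is highest in the Cpa1-high columns.

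In Gcg-high cells, a small number of the imprinted genes carried most of the reads of the set. Of the 35 genes, 24 reached 10 CPM, 15 reached 100 CPM and 3 reached 1000 CPM (Peg10, Peg3 and Meg3) in all 5 Gcg-high groups, that is the 4 set 2 blocks and the set 3 Neurod1OE cells. Together the 35 genes took 1.35% to 2.52% of all reads in these groups, 1.12% in the neither cells, and 0.768% and 0.550% in the Cpa1-high Neurod1OE and Ngn3KO cells. Magel2, Phlda2 and Usp29 stayed below 10 CPM in all 8 groups. Grb10, Meg3, Peg3 and Rian had reads in every cell of all 8 groups.

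Peg10, a gene derived from a retrotransposon and needed in the placenta, was the highest member in all 5 Gcg-high groups. In Gcg-high Neurod1OE cells of set 2 it had a median of 6735 CPM per cell in block 1 (143.9 to 22875) and 6111 CPM in block 2 (90.4 to 14780). In Gcg-high Ngn3KO cells the median was 10496 CPM in block 1 (225 to 31904) and 4409 CPM in block 2 (49.4 to 13164), and in set 3 Neurod1OE cells 4536 CPM (45.2 to 11639). The ranges overlapped in all 5 groups, and between 76.1% and 91% of the cells passed 1000 CPM. Per kilobase of exon, Peg10 led in set 2 with 901 CPM for Neurod1OE and 1188 CPM for Ngn3KO cells. Nnat came next in Ngn3KO with 812 CPM, a value pooled from 1451 CPM in block 1 and 48.998 CPM in block 2, where it ranked 11. Peg3 followed Peg10 in Neurod1OE with 257 CPM per kilobase, then Meg3 with 109.8, Snrpn with 98.96, Dlk1 with 96.9 and Grb10 with 92.3, neighbours that lie within the spread of their cells. Within the Gcg-high groups the cell-level Spearman correlation of Peg10 with Gcg was 0.52, 0.44, 0.36, 0.21 and 0.08 in the order given above. These cover 31 cells in set 3 and 46 or more in each block. Here Peg10 was scaled to each cell's total without hormone and enzyme genes, and Gcg to the full total. The first total leaves out Gcg reads, which can raise the scaled Peg10 in cells rich in Gcg.

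Levels were also compared across the 5 Gcg-high groups. Of the 24 genes at 10 CPM or more in all of them, 16 stayed within 2-fold from the lowest to the highest group. The share of all genes that did so was not counted, so this count shows nothing particular to imprinted genes. Grb10, an adaptor that dampens insulin and IGF signalling, had 851, 852, 859, 815 and 885 CPM. Peg3, a zinc finger protein, had 4030, 2915, 4341, 2539 and 2654 CPM, the lower 3 being block 2 of both genotypes and set 3. Gnas, a gene for the stimulatory G protein subunit that couples the glucagon and GLP-1 receptors to cAMP, had 340, 434, 422, 535 and 519 CPM. Reads were counted per gene, and Gnas has transcripts with several RefSeq starts. It also shares 1469 exon bases with Gm20721 and 988 with Nespas, both on the opposite strand. Its levels, here and below, can therefore not be assigned to that subunit alone. The other 8 were Impact, Kcnq1ot1, Ndn, Nnat, Peg10, Slc38a4, Trappc9 and Zim1. Of these, Kcnq1ot1 ran from 191.5 CPM in set 3 to 429 CPM in Ngn3KO block 1, Ndn from 180.02 CPM in Ngn3KO block 1 to 397 CPM in Neurod1OE block 2, and Slc38a4, an amino acid transporter, from 12.7 CPM in set 3 to 47.8 CPM in Ngn3KO block 1.

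The question put to set 2 was how Gcg-high and other Neurod1OE cells differ from those that carry the Ngn3 allele as well. Measured genes were those that reached 10 CPM, with reads in 10% or more of the cells, on 1 side or both. A ratio of 2-fold or more, after adding 1 CPM to each side, was called higher or lower. Of 27 measured members, 1 was higher in Ngn3KO (Nnat) and 1 lower (H19), beside 0.859% and 1.67% of all 10010 measured genes. The median log2 ratio was 0.03 over the members and -0.07 over all measured genes. In Gcg-high cells alone, again Nnat was higher and H19 lower among 27 members, beside 0.921% and 1.44% of all genes. The other 25 measured members in each comparison lay within 2-fold: Peg10 was at 6010 and 7920 CPM, Dlk1 at 548 and 444 CPM, Meg3 at 1986 and 2184 CPM, and Igf2r, the receptor that clears IGF2, at 134.98 and 155.96 CPM in Neurod1OE and Ngn3KO.

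**Figure D2:**
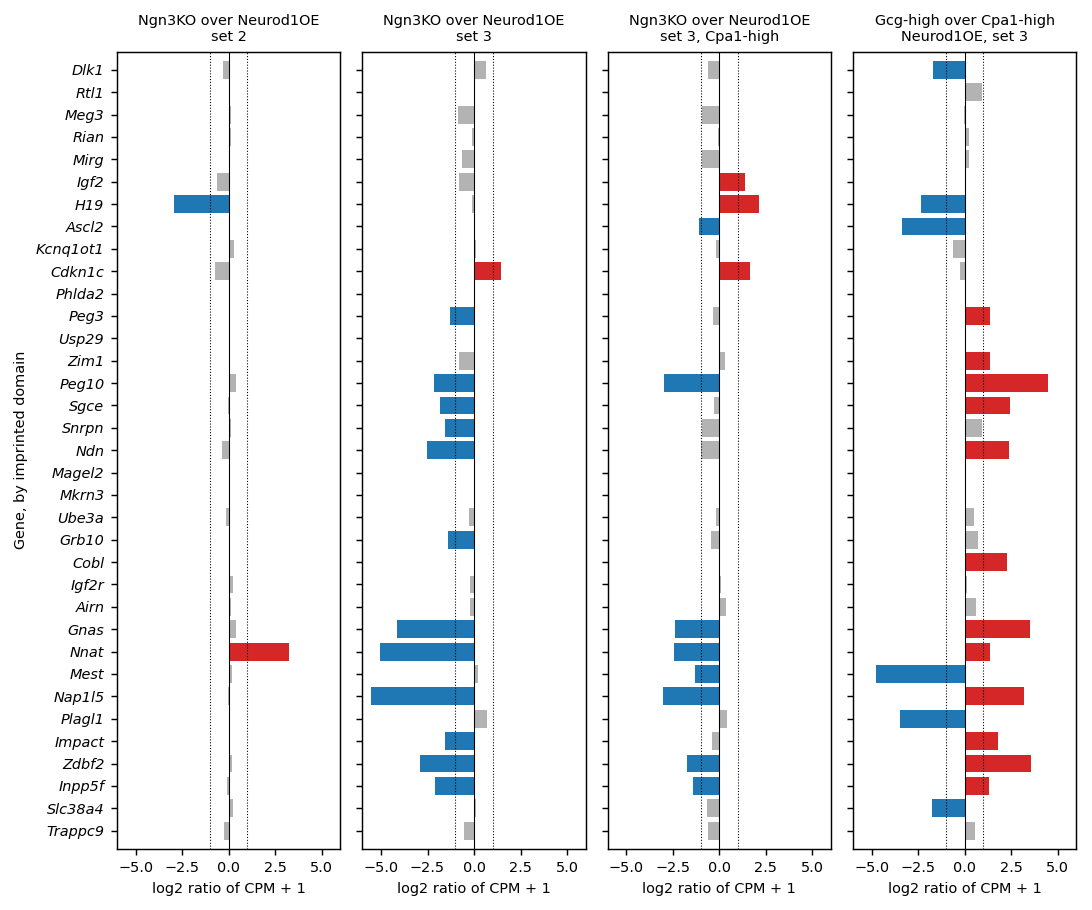
Log2 ratio of CPM + 1 for each measured member in 4 comparisons, with red bars at least 2-fold higher, blue bars at least 2-fold lower, grey bars between and dotted lines at 2-fold; genes without a bar were not measured there. In set 2 only Nnat and H19 pass the lines, while in the contrast of Gcg-high with Cpa1-high cells 12 members are higher and 6 lower.

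Nnat, neuronatin, a small membrane protein of the endoplasmic reticulum that aids insulin handling in beta cells, reached 1485 CPM over the Ngn3KO cells of set 2 but 154.9 CPM over its Neurod1OE cells, a log2 ratio of 3.25. The median cell differed far less, with 31.3 and 19.1 CPM. In Ngn3KO block 1, the cells with title numbers 28, 86 and 53 had 36377, 33088 and 23133 CPM of Nnat, together with 85796, 70337 and 147505 CPM of Ins1 and Ins2, the insulin genes. Those 3 cells were high for both genes and low for Peg10, at 181.8, 405 and 241 CPM, while their Gcg was 816 to 2299 CPM. In Neurod1OE block 1, the top Nnat cell (number 42) had 9562 CPM of Nnat and 11187 CPM of insulin.

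Split at 1000 CPM of insulin, the 8 insulin-rich cells of Ngn3KO block 1 had 20765 CPM of Nnat and the other 95 cells 147.02 CPM. The 3 insulin-rich cells of Neurod1OE block 1 had 2170 CPM against 83.2 CPM in the other 48. In block 2 of Neurod1OE, 2 insulin-rich cells had 1292 CPM and the other 64 had 17.6 CPM. Block 2 of Ngn3KO did not repeat this, since its 2 insulin-rich cells had 8.75 CPM, and its highest Nnat cell (2783 CPM) had 41.3 CPM of insulin. Without the insulin-rich cells of both genotypes the log2 ratio over set 2 was 1.25, within block 2 it was 0.58, and in Gcg-high cells of block 2 it was 0.10. With cells weighted equally, the ratio in Gcg-high cells was 0.94, below the 2-fold line. The split by insulin was chosen after the values were seen.

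**Figure D3:**
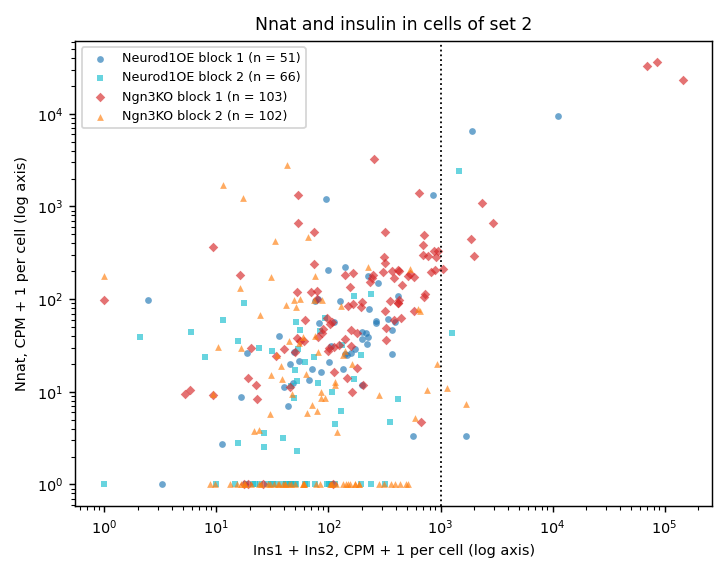
Nnat against the sum of Ins1 and Ins2 in each cell of set 2, both as CPM + 1 on log axes, with the 1000 CPM insulin limit dotted and the 4 blocks in separate colours and marks. The 3 cells at the upper right, all Ngn3KO block 1, lie at 23133 CPM of Nnat and 70337 CPM of insulin or above.

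H19, a long noncoding RNA of the maternal chromosome next to Igf2, had 29.6 CPM over the Neurod1OE cells of set 2 and 2.95 CPM over its Ngn3KO cells, a log2 ratio of -2.95. One cell of Neurod1OE block 2 held 61.4% of that block's H19 reads, and the median cell was at 0 in both genotypes. The ratio was -2.12 without each genotype's top cell, -1.09 within block 1, where the genotypes also differ in sex, and -4.28 within block 2. The share of cells with an H19 read followed the blocks more than the genotypes, at 72.5% (exact 95% interval 58.3% to 84.1%) and 52.4% (42.4% to 62.4%) in block 1 of Neurod1OE and Ngn3KO, and 21.2% (12.1% to 33.02%) and 10.8% (5.51% to 18.5%) in block 2. After thinning every cell to 165298 reads the shares were 53.1%, 42.4%, 19.7% and 4.88%. Within block 1 the median cell still had no more than 3.77 CPM, a few reads at this depth. Intervals here and below cover counting error only.

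The blocks of set 2 were compared within Gcg-high cells, which were not alike in other markers. The 6 beta cell genes summed to 4337 and 2914 CPM in blocks 1 and 2 of Neurod1OE and to 11447 and 3021 CPM in Ngn3KO, where 4 of the 5 measured were at least 2-fold higher in block 1. The 5 hepatic genes summed to 73.3 and 154.6 CPM in Neurod1OE and to 102.4 and 281 CPM in Ngn3KO, with 3 of the 4 measured lower in block 1 of each genotype. Their part in the block differences was not tested. In Neurod1OE, 4 of 28 measured members were higher in block 1 (Nnat, Cdkn1c, Zim1 and Mkrn3) and 2 lower (Mest and Impact), beside 8.31% and 7.27% of all genes. In Ngn3KO, 4 of 27 were higher (Nnat, Peg10, Plagl1 and Cdkn1c) and 2 lower (Mest and Trappc9), beside 6.90% and 5.15%. Of these, Mest (-0.994) and Mkrn3 (0.99) in Neurod1OE and Plagl1 (0.75) and Cdkn1c (0.78) in Ngn3KO came under 2-fold with 5 CPM added, and Trappc9 (-0.91) in Ngn3KO at a state limit of 500 CPM and Plagl1 (0.69) at 2000 CPM. Cdkn1c in Ngn3KO was also just under it, at 0.986, without the insulin-rich cells. The blocks of Neurod1OE differ in sex and those of Ngn3KO do not, and no cell is shared by these comparisons.

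Nnat had log2 ratios between blocks of 2.08 in Neurod1OE and 4.94 in Ngn3KO. Without the insulin-rich cells these were 2.38 and 1.12, and Mest then differed more than Nnat in Ngn3KO, at -2.35. The median Gcg-high cell had 36.9 CPM in block 1 and 2.21 CPM in block 2 of Neurod1OE, and 92.95 and 4.81 CPM in Ngn3KO. Reads of Nnat were present in 97.8% and 55.4% of these Neurod1OE cells and in 96% and 54.5% of these Ngn3KO cells, and the thinned shares were 91.3%, 44.6%, 94.4% and 55.6%. Mest was higher in block 2, at 19.7 against 7.41 CPM in Neurod1OE and 39.96 against 7.26 CPM in Ngn3KO. Trappc9, a subunit of a vesicle-tethering complex, was at 41.5 and 72.5 CPM in blocks 1 and 2 of Neurod1OE (median cells 3.65 and 53.4) and at 28.4 and 63.6 CPM in Ngn3KO (4.62 and 47.4). Cdkn1c, a cyclin-dependent kinase inhibitor, was higher in block 1, at 27.9 against 7.21 CPM in Neurod1OE and 16.7 against 7.64 CPM in Ngn3KO. Impact, a regulator of the GCN2 stress kinase, had 238 and 512 CPM in Neurod1OE but 278 and 441 CPM in Ngn3KO, which is under 2-fold. Peg10 had 11230 and 4355 CPM in the blocks of Ngn3KO against 6575 and 5824 CPM in Neurod1OE.

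**Figure D4:**
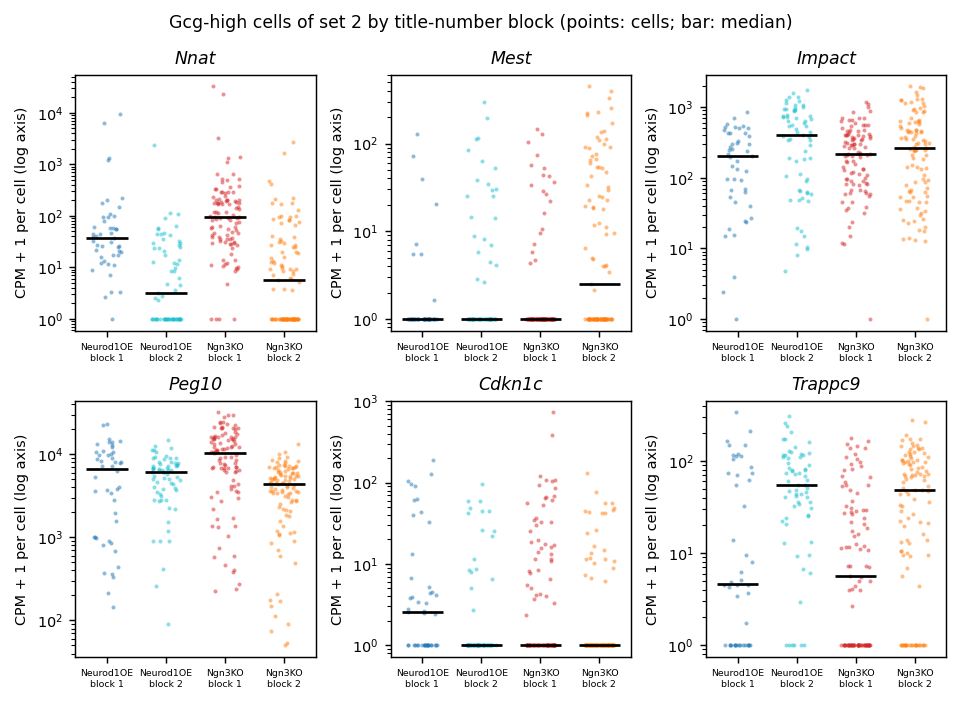
CPM + 1 per cell on a log axis for 6 members in Gcg-high cells of set 2, by genotype and title-number block; each point is a cell and the bar is the median. Nnat lies higher in block 1 than in block 2 of both genotypes and Trappc9 lower, and all ranges overlap.

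Within blocks, the genotypes were again close. In block 1 the Gcg-high cells with a called sex were male in Neurod1OE (44 cells) and female in Ngn3KO (96 cells). Genotype and sex cannot be told apart there, while in block 2 the called cells of both genotypes were female. In block 1 Gcg-high cells, Nnat was higher in Ngn3KO (log2 ratio 2.96), beside 3.65% of all genes. Lower were H19 (-1.17, from 10.3 CPM in Neurod1OE and 4.01 CPM in Ngn3KO) and Mkrn3, a ring finger protein tied to the timing of puberty (-1.22, from 12.2 and 4.65 CPM), beside 4.95% of all genes. Both lie close to the 10 CPM limit of measured genes, and this contrast was not run with 5 CPM added. In block 2, only H19 passed the line (-3.04, from 20.9 and 1.66 CPM), beside 1.55% and 2.60%. Mest came near it, with 39.96 CPM in Ngn3KO and 19.7 CPM in Neurod1OE (0.98).

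More members passed the 2-fold line between states than between genotypes in set 2. In Neurod1OE cells of set 3, 12 of 31 measured members were at least 2-fold higher in Gcg-high than in Cpa1-high cells and 6 lower, beside 26% and 19.3% of all 10683 measured genes. The members passing in either direction were 58.1% against 45.3% of all genes, and the median log2 ratio 0.61 against 0.21. The states were defined by Gcg and Cpa1, neither of which is a member. Cpa1-high cells were read to a median of 1375505 reads per cell against 682756 in Gcg-high cells. By called sex, 25 Gcg-high cells were male and 5 female, against 6 male and 8 female Cpa1-high cells. The part of depth and sex in these ratios was not tested.

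Higher in Gcg-high cells were Peg10 (log2 ratio 4.50), Zdbf2 (3.55), Gnas (3.51), Nap1l5 (3.20), Sgce (2.45), Ndn (2.35), Cobl (2.25), Impact (1.80), Nnat (1.35), Peg3 (1.34), Zim1 (1.34) and Inpp5f (1.28). Peg10 had a median of 4536 CPM in Gcg-high cells and 8.24 CPM in Cpa1-high cells, where 1 cell of 15 (1578 CPM) held 74.4% of the reads and the other 14 had 2.87 to 203.5 CPM. Zdbf2 had a median of 260 CPM (0 to 850) against 1.45 CPM (0 to 319). Gnas had a median of 379 CPM (0 to 1305) against 7.38 CPM (0 to 324), and Nap1l5 206 CPM (8.54 to 483) against 0 CPM (0 to 209). For each of these 4 genes the ranges overlapped and the medians lay far apart. Ndn, necdin, a MAGE family protein that promotes exit from the cell cycle, had a median of 275 CPM against 50.9 CPM, and Sgce, a sarcoglycan next to Peg10, 80.2 against 1.39 CPM.

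Lower in Gcg-high cells were Mest (-4.74), Plagl1 (-3.47), Ascl2 (-3.38), H19 (-2.35), Slc38a4 (-1.78) and Dlk1 (-1.72). Dlk1, a membrane protein related to Notch ligands, had a median of 2151 CPM (641 to 2747) in Cpa1-high cells and 356 CPM (0 to 1639) in Gcg-high cells, and per kilobase it led all members in the Cpa1-high Neurod1OE cells with 325 CPM. Mest had a median of 52.3 CPM (0 to 437) against 0 CPM (0 to 160), and Plagl1, which restrains proliferation, 13.3 CPM (0 to 83.05) against 0 CPM (0 to 54.4). Mest shares 912 exon bases (23.1% of its exons) with Copg2 on the opposite strand, and as no strand setting is given the reads of both cannot be told apart. The 6 cycling genes of the marker lists summed to 1401 CPM in the Cpa1-high and 16.5 CPM in the Gcg-high cells, and their part in these ratios was not tested.

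In the summed levels of the 2 states, neighbours in a domain changed in the same direction in some domains and not in others. Peg10 and Sgce of 1 domain were both higher in Gcg-high cells, as were Peg3 and Zim1 of another. In the Dlk1-Meg3 domain, Dlk1 was lower in Gcg-high cells while Meg3, a noncoding RNA of the maternal chromosome, had 1826 and 1890 CPM, Rian, a host of small nucleolar RNAs, 740 and 637 CPM, and Mirg, a host of miRNAs, 73.8 and 62.8 CPM. Across the 7 groups in which they were compared, the cell-level Spearman correlation of Meg3 and Rian was 0.35 to 0.57, while that of Dlk1 and Meg3 was -0.11 to 0.31. For Peg10 and Sgce it was 0.05 to 0.72 and for Peg3 and Zim1 -0.01 to 0.55, both highest in Cpa1-high Neurod1OE cells. Peg10 and Peg3, on different chromosomes, had 0.22 to 0.53, so such values are not particular to neighbours. The cells of a group share its library steps, and the genes share each cell's total. In the Kcnq1ot1 domain, Ascl2, a transcription factor of the placental lineage, was lower in Gcg-high cells at 0.0896 against 10.3 CPM, while Cdkn1c (20.2 and 24.1 CPM) and the long antisense RNA Kcnq1ot1 (191.5 and 297 CPM) were within 2-fold. Igf2, a fetal growth factor, was at 17.02 and 16.5 CPM and did not pass, beside its neighbour H19, which did but came to -0.76 with cells weighted equally. Igf2r and Airn, the antisense RNA that silences it on the paternal copy, were at 187.5 and 169.4 CPM and at 32.3 and 20.8 CPM. In the Snrpn-Ube3a domain Ndn was higher, Snrpn (243 and 126.1 CPM) stayed just under 2-fold, and Ube3a, a ubiquitin ligase, had 92.96 and 66.6 CPM.

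**Figure D5:**
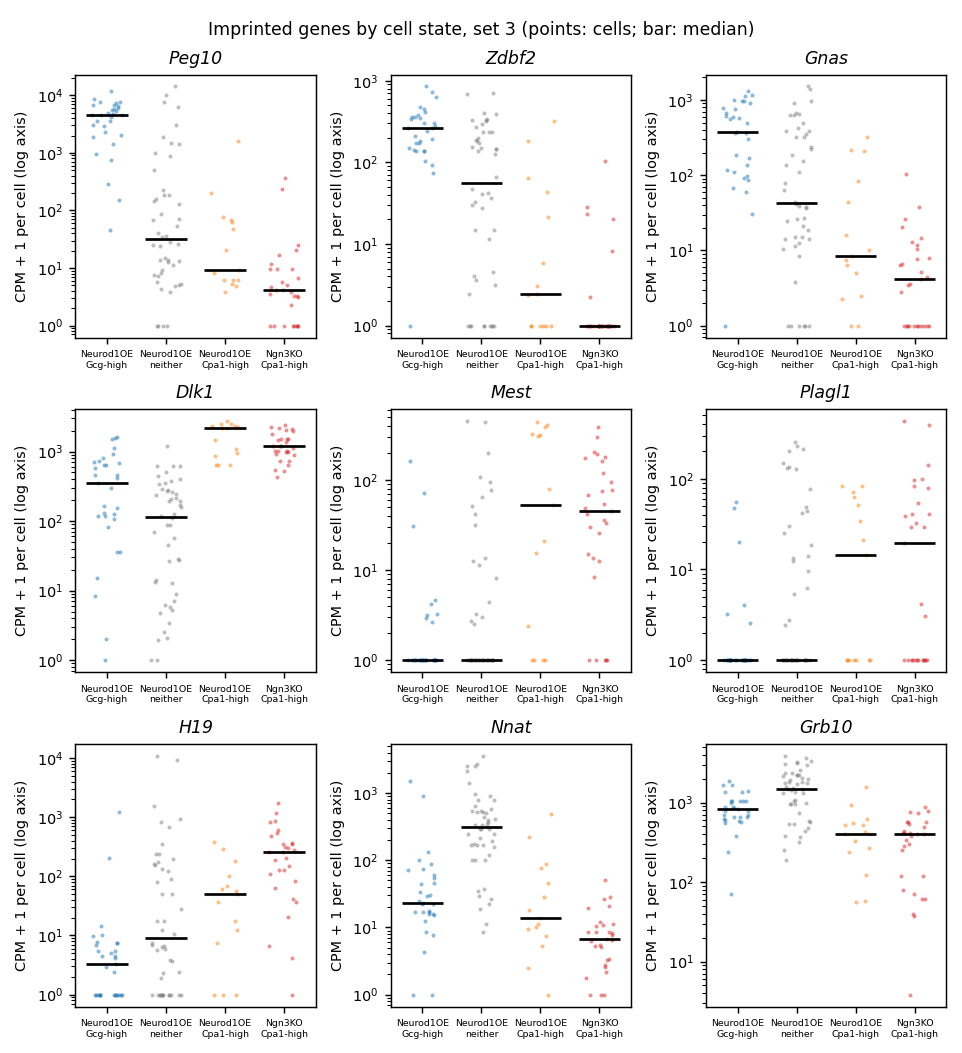
CPM + 1 per cell on a log axis for 9 members by state in set 3, each point a cell and the bar the median; columns are Neurod1OE Gcg-high (31 cells), neither (48), Cpa1-high (15) and Ngn3KO Cpa1-high (29). Peg10, Zdbf2 and Gnas have their highest medians in Gcg-high cells, Dlk1 and Mest in Cpa1-high cells, and Nnat and Grb10 in the neither cells.

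The 48 neither cells of set 3 had 9 pan-endocrine genes at a sum of 3944 CPM and 6 duct and trunk genes at 2465 CPM, the latter above the 594 CPM of Gcg-high cells. Against Gcg-high cells, 5 of 30 measured members were higher and 8 lower, beside 19.2% and 12.3% of all genes. Higher were H19 (5.70), Plagl1 (3.76), Igf2 (3.07), Mest (2.28) and Nnat (2.27), as log2 ratios. Lower were Cobl (-2.44), Peg10 (-1.77), Mirg (-1.59), Dlk1 (-1.51), Rtl1 (-1.49), Gnas (-1.17), Zdbf2 (-1.17) and Trappc9 (-1.06). Of these, Dlk1 (-0.68) and Trappc9 (-0.76) came under 2-fold at a state limit of 2000 CPM, and Rtl1 (-0.96) with 5 CPM added. These Gcg-high cells are the same as those compared with Cpa1-high cells above.

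Nnat was read in all 48 neither cells, at a median of 310 CPM (7.61 to 3605), against 21.9 CPM (0 to 1482) in Gcg-high cells. It passed 100 CPM in 38 of the 48 cells (79.2%) and in 3 of 31 Gcg-high cells (9.68%). Grb10 was also highest here, at a median of 1489 CPM against 839 CPM, just under 2-fold in the sums (1581 and 885 CPM). H19 and Igf2 rested on few cells: 2 cells held 83.3% of the H19 reads and 2 held 81.3% of the Igf2 reads, and the median cells had 8.02 and 0 CPM. Peg10 was spread widely, with a median of 30.4 CPM, 8 of 48 cells past 1000 CPM and a highest value of 14221 CPM.

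Among the neither cells, the Spearman correlation with the pan-endocrine sum was 0.72 for Zdbf2, 0.64 for Gnas, 0.51 for Peg10, 0.49 for Meg3 and -0.55 for H19, and H19 had 0.53 with the duct and trunk sum. Among the 15 Cpa1-high Neurod1OE cells it was 0.84 for Gnas, 0.80 for Zdbf2, 0.80 for Peg3, 0.74 for Ndn and -0.74 for Plagl1. These were the largest values of the members correlated there. With the duct and trunk sum the same genes had 0.49, 0.53, 0.82, 0.68 and -0.49, so the 2 sums are not separated. These coefficients describe cells of 1 genotype and set. Members were scaled to each cell's total without hormone and enzyme genes, and the marker sums to the full total. Of the neither cells, 4 had at least 100 CPM of Sox10 or Kdr, markers of neural crest and endothelial cells. The 2 Sox10 cells had 450 and 434 CPM of Mest, and without the 4 cells Mest in the neither group was 17.4 CPM instead of 36.8 CPM and H19 was 895 CPM instead of 859.9 CPM.

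In set 3 the genotypes were sampled in different states, so the totals compare mostly Cpa1-high Ngn3KO cells with a mixture of Neurod1OE cells. Of 28 measured members, 1 was higher in Ngn3KO (Cdkn1c) and 12 lower, beside 5.96% and 31.8% of all 10478 measured genes; the members' median was -0.80 and that of all genes -0.57. The largest were Nap1l5 (-5.56, 99.8 and 1.13 CPM in Neurod1OE and Ngn3KO), Nnat (-5.05, 312 and 8.43 CPM) and Gnas (-4.15, 278 and 14.7 CPM). TMM scaling shifts this contrast by 0.48 on the log2 scale, before 1 CPM is added, and Peg3 (-0.78) and Grb10 (-0.93) then came under 2-fold. State and genotype cannot be told apart in these totals.

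Within Cpa1-high cells of set 3 (29 Ngn3KO and 15 Neurod1OE), 3 of 29 measured members were higher in Ngn3KO and 8 lower, beside 4.37% and 18% of all 9588 measured genes. The medians were -0.62 and -0.34. Lower were Nap1l5 (-3.04), Peg10 (-2.95), Nnat (-2.45), Gnas (-2.36), Zdbf2 (-1.76), Inpp5f (-1.41), Mest (-1.29) and Ascl2 (-1.10), of which Mest (-0.996) and Ascl2 (-0.84) came under 2-fold with TMM, a scaling shift of 0.30 before 1 CPM is added. Higher were H19 (2.14), Cdkn1c (1.66) and Igf2 (1.35). All 29 Ngn3KO cells were called male, while 6 of the Neurod1OE cells were called male and 8 female. The median cell had 711280 reads in Ngn3KO and 1375505 reads in Neurod1OE. Genotype, sex and depth are thus not separated in these ratios. The 15 Neurod1OE cells are also those set against Gcg-high cells above. The pan-endocrine sum was also lower in these Ngn3KO cells (421 against 2113 CPM), and its part in the ratios was not tested.

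The median cell had 253 CPM of H19 (0 to 1734) in Ngn3KO and 50.2 CPM (0 to 379) in Neurod1OE. It passed 100 CPM in 21 of 29 Ngn3KO (72.4%) and 4 of 15 Neurod1OE cells (26.7%), with overlapping ranges. Peg10 moved less in the median cell, from 8.24 to 3.15 CPM, and the ratio was -0.46 at a state limit of 2000 CPM and -4.75 without the 2 Ngn3KO cells described next. Nnat had medians of 12.8 and 5.75 CPM, and Gnas 7.38 and 3.19 CPM. Mest differed in the sums (207 and 83.8 CPM) but its median cells had 52.3 and 44.1 CPM. Dlk1 was high in both, at medians of 2151 and 1189 CPM.

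Cdkn1c and Igf2 rested on the Ngn3KO cells numbered 12 and 29, which had 5969 and 4341 CPM of the mesenchyme collagen Col3a1 beside their Cpa1. These 2 cells had 855 and 1015 CPM of Cdkn1c, 553 and 417 CPM of Igf2, and 433 and 390 CPM of Plagl1. Without them the remaining 27 cells had 32.6, 18.3 and 30.4 CPM of the 3 genes, and the log2 ratios of Cdkn1c and Igf2 were 0.42 and 0.14. H19 was not affected, at 368 CPM and a ratio of 2.13. Over all cells of set 3, the ratio of Cdkn1c was 0.47 without cells of other types.

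Other imprinted genes, the genes that maintain imprints and the IGF pathway were counted beside the members. Of 31 further imprinted genes found, 18 were measured in set 2, with 0 higher and 2 lower in Ngn3KO (Peg12 and Dcn), beside the 0.859% and 1.67% of all genes given above. Between Gcg-high and Cpa1-high cells 18 were measured, with 6 higher and 1 lower, or 38.9% in either direction against 45.3% of all genes. Among the 6 that were higher in Gcg-high cells were Calcr, the calcitonin receptor gene (64.6 and 0.114 CPM), Osbpl5, an oxysterol-binding protein (42.9 and 0.854 CPM), and Rasgrf1, an exchange factor of RAS (19.3 and 2.68 CPM). Of 13 genes for imprint maintenance, 10 were measured; 0 passed between genotypes in set 2, and between the states Dnmt3a (363 and 128.6 CPM), a DNA methyltransferase, and Zfp445 (32.3 and 13.6 CPM), an imprint-binding zinc finger protein, were higher in Gcg-high cells, while Uhrf1 (3.45 and 120.96 CPM) and Hells (1.88 and 51.4 CPM), which act at replication, were lower, so that 40% passed against the same 45.3%. Of 15 IGF pathway genes, 10 were measured in set 2 with 0 passing, and 12 between the states with 3 higher and 3 lower, or 50% against 45.3% of all genes. Igf1 was at 0.448 CPM in Gcg-high and 75.3 CPM in Cpa1-high Neurod1OE cells, and at 169.3 CPM in Cpa1-high Ngn3KO cells. Igf2bp1, an RNA-binding protein that takes Igf2 RNA as a target, was at 20.1, 128.02 and 33.4 CPM in the same groups and at 151.03 CPM in the neither cells.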

How the data were processed

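Single-cell Smart-seq3 RNA was deposited by the authors as raw read counts per gene and cell, in 1 sparse matrix per set. Per the submitters' processing notes, Trimmomatic 0.39, HISAT2 2.1.0, featureCounts 2.0.0 and the build mm10 were used; annotation, strand setting, use of molecule barcodes and cell filters are not given in the sources used here. Counting without strand, or of overlapping genes, could move a level. All 447 cells were used, 92 ERCC spike-ins were left out of totals, and no doublet caller was run because wells were sorted with 1 cell. Reads were summed per group and scaled to CPM; log2 ratios were taken after adding 1 CPM, and 2-fold was the limit. Summed reads gave exact Poisson intervals (95%), shares Clopper-Pearson ones; 1 sample per genotype allowed no test. Shares were also thinned to the 10th percentile of depth. All members were named whatever their values. The members and lists were chosen with earlier results of these data known. Alternatives covered TMM and DESeq2 scaling, pseudocount, filter, state limit, cell weighting, totals without hormone and enzyme genes, top cells, blocks and sex. Of the comparisons, 3 (neither against Gcg-high, and both block contrasts) and, of the alternatives, 2 (without insulin-rich cells, without cells of other types) were chosen after seeing the data. Ratios were checked on simulated counts. Coordinates are from GENCODE vM21, sequences from RefSeq GRCm38.p6. Python 3.11.15 (numpy 2.4.6, scipy 1.17.1, pandas 2.3.3) and R 4.3.3 (edgeR 4.0.16, DESeq2 1.42.0) were used.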

Additional observations from a re-analysis of the deposited data

Results flagged for a closer look

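Nnat had opposite directions in the 2 sets under the same genotype contrast, with a log2 ratio of Ngn3KO over Neurod1OE of 3.25 in set 2 and -5.05 in set 3. The difference between the sets was not tested, since each genotype is 1 sample. Set 2 compares mostly Gcg-high cells, and 3 insulin-rich Ngn3KO cells, 1 of them below the Gcg limit, had the highest Nnat. Set 3 compares mostly Cpa1-high Ngn3KO cells with Neurod1OE cells of mixed states.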

How the results depend on the processing

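Of 2326 log2 ratios of members under alternatives, 2254 stayed on the same side of the 2-fold line, 72 crossed it and 0 changed sign from a called value. Restricted to block 2, set 2 had 0 members higher and 2 lower in Ngn3KO, and its Gcg-high cells 0 higher; restricted to block 1, the Gcg-high cells had 2 lower. In Gcg-high cells of set 2, 2 members were higher with no filter and 0 with cells weighted equally. In set 3, 3 members were higher with TMM, with DESeq2 size factors and with cells weighted equally (Dlk1 and Plagl1 joined), 2 with male cells only, and 0 without each gene's top cell or without cells of other types; with DESeq2 size factors Peg3 and Grb10 were at -0.75 and -0.90. TMM shifts Gcg-high against Cpa1-high cells by -0.17, neither against Gcg-high cells by -0.13, and contrasts within set 2 by under 0.1. In Cpa1-high cells, 5 were higher at a state limit of 2000 CPM and 1 without cells of other types. Between blocks, Neurod1OE had 7 higher with no filter and 1 lower with 5 CPM added, and Ngn3KO had 2 higher with 5 CPM added and 1 lower at a state limit of 500 CPM. Between Gcg-high and Cpa1-high cells, 15 of 18 calls held in every alternative run; H19 (-0.76), Nnat (0.69) and Slc38a4 (-0.999) came under 2-fold with cells weighted equally. Male cells alone were not run where a side had fewer than 10 cells, as in Cpa1-high cells. No paired analysis was possible because the title numbers that the groups share name cells and tie no cell to another. Depth limits the scarce members: in Gcg-high Ngn3KO cells of block 1, Ascl2 and Phlda2 had 0 reads, which allows up to 0.0711 CPM (3 reads).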
